A study of Homo sapiens with 8 samples.

Results

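The comparison described here set A549 cells exposed to 15 nM helveticoside, the middle of 3 doses, against cells given the helveticoside vehicle. A549 is an established human lung carcinoma line of epithelial origin, and helveticoside is a cardiac glycoside of Descurainia sophia seeds. Genes were taken when their probe was well above background, by the scanner software's own call, on both arrays, which left 12144 of the 19053 genes that could be named. Another 655 genes were well above background at 15 nM alone, 380 on the vehicle array alone and 5874 on neither. The series held 8 single-colour arrays of A549 RNA, with a vehicle and helveticoside at 3.75, at 15 or at 60 nM on 4 of them and a vehicle and EEDS, the ethanol extract of the seeds, at 1.25, at 5 or at 20 μg/mL on the other 4. Each array held RNA pooled from 3 cultures, so a pooled array averages its cultures and shows nothing of the spread among them. The 2 arrays of the comparison carry the same cells in the same medium and differ in the labels by the drug alone. Exposure lasted 24 h by the study's methods and 48 h by the labels. With 1 array a side there was no replicate error, and no p-value, standard error or test is given. Values below are log2 signals after quantile normalization over the 8 arrays, and log2 ratios are the 15 nM value minus the vehicle value, so that 1 is 2-fold and 2 is 4-fold.

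Cardiac glycosides bind the sodium pump, the Na+/K+-ATPase, whose alpha subunit hydrolyses ATP to carry sodium out of the cell and potassium in and whose beta subunit brings the enzyme to the membrane. Blocked pumps let sodium rise and potassium fall inside the cell, and cell calcium can rise through sodium-calcium exchange. In cancer cell lines these drugs are known to slow growth, to switch on stress and immediate early genes and to lower protein synthesis.

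The labelled cell type was checked on marker genes. All 11 epithelial and A549 markers on the array were well above background on both arrays, among them the keratins KRT8 and KRT18 and the detoxifying enzymes NQO1 and AKR1B10, at log2 signals of 9.29 to 18.4 on the vehicle array. Of 15 blood, endothelial and fibroblast markers, 8 were not well above background on either array, including CD3E of T cells, HBB of red cells and PECAM1 of endothelium. COL3A1 of fibroblasts was well above background at 15 nM alone. The other 6 were well above background on both arrays. Among them, CD14 read 11.29 on the vehicle array, COL1A1 7.89, CD68 7.44 and PTPRC 7.08. The log2 of the summed signal of these 15 was 12.07 on the vehicle array and 11.69 at 15 nM. In bulk RNA, fewer cells of a kind and less RNA per cell cannot be told apart.

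At 15 nM, 671 genes were over 2-fold higher than on the vehicle array (5.53% of the 12144) and 814 were over 2-fold lower (6.7%). Over 4-fold, 67 genes were higher (0.552%) and 84 lower (0.692%). The ratios had an SD of 0.67 across genes and a median of -0.01. The nearest thing to a null in the series was the helveticoside vehicle set against the EEDS vehicle, which crosses the 2 series. There, 476 of 12383 genes were over 2-fold higher (3.84%) and 180 lower (1.45%), the SD across genes was 0.50, and 34 (0.275%) and 13 (0.105%) passed 4-fold. The direction of this vehicle ratio is arbitrary, and turned round its 3.84% would stand on the lower side and its 1.45% on the higher side. Measured against both vehicle arrays, 399 of 668 genes stayed over 2-fold higher (59.7%) and 676 of 813 stayed over 2-fold lower (83.1%). The 4048 dimmest members held the most large ratios, 16.1% over 2-fold in either direction, against 7.78% of the 4048 brightest and 12.2% of all. Between the vehicle arrays, 8.48% of the 3985 dimmest members measured on both passed 2-fold, and 2.74% of the 4048 brightest. Of all 12383 genes measured on both vehicles, 5.3% did.

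**Figure D1:**
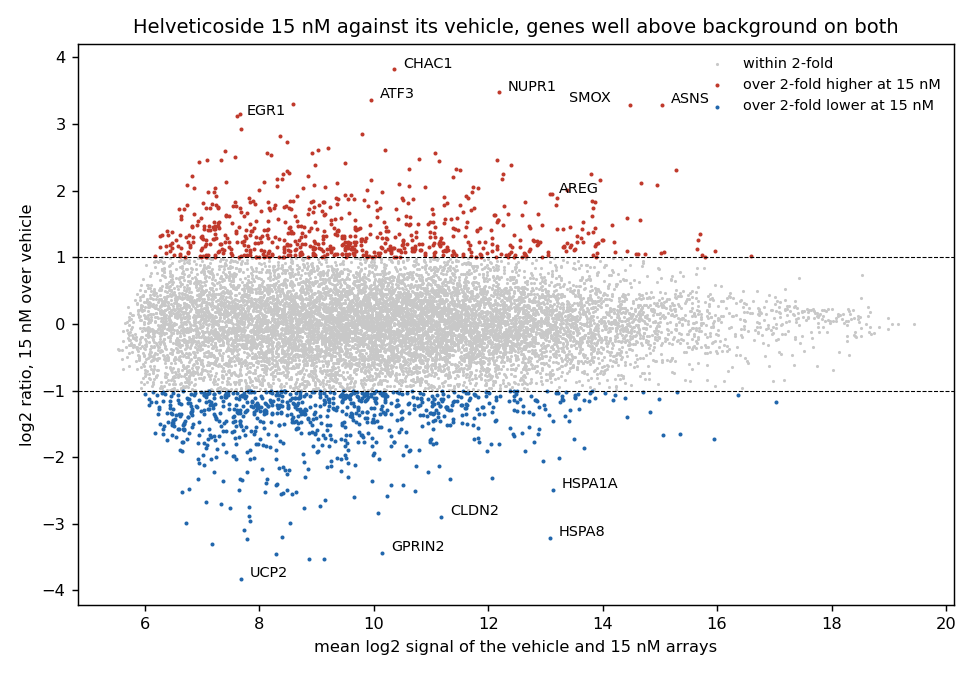
Log2 ratio of 15 nM over vehicle (vertical) against the mean log2 signal of the 2 arrays (horizontal) for the 12144 genes, 1 point a gene, red over 2-fold higher and blue over 2-fold lower, dashed lines at 2-fold. The cloud narrows with signal, and ASNS, SMOX, HSPA8 and HSPA1A stand outside it at high signal.

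**Figure D2:**
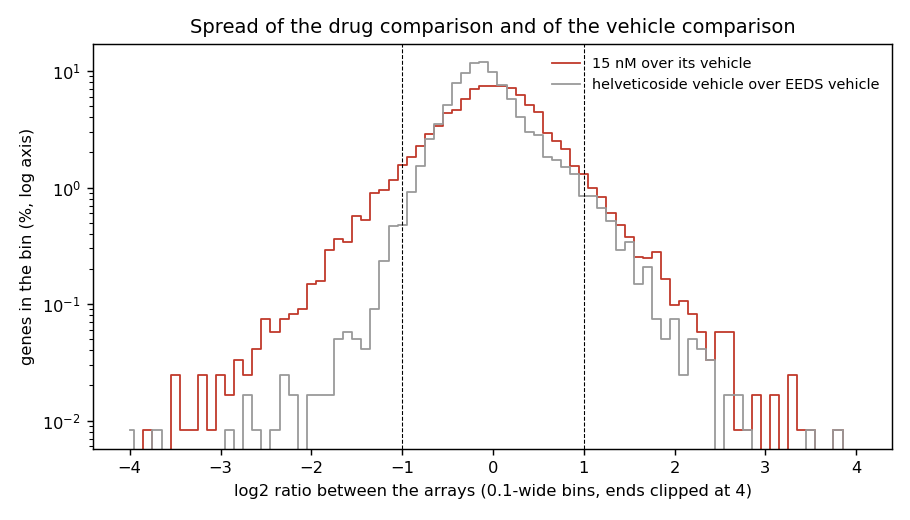
Share of genes (%, log axis) in each 0.1-wide bin of log2 ratio for 15 nM over its vehicle (12144 genes, red) and for the helveticoside vehicle over the EEDS vehicle (grey, the 12081 of these genes also well above background on the EEDS vehicle array). The red curve is wider than the grey one, which is skewed to the right and would be skewed to the left with the vehicle ratio turned round.

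Of the 15 largest ratios upward, 3 belonged to the list of the ATF4 stress response (CHAC1, NUPR1 and ASNS) and 2 to that of the immediate early factors (ATF3 and EGR1). CHAC1, a glutathione-degrading enzyme, read 8.44 on the vehicle array, 9.38 at 3.75 nM, 12.26 at 15 nM and 10.71 at 60 nM, which at 15 nM was 14.1-fold over vehicle. NUPR1, a stress-induced chromatin protein, read 10.45, 10.76, 13.93 and 12.89 in the same order, 11.1-fold at 15 nM. Both were highest on the 15 nM array. SMOX, which oxidizes spermine, read 12.84, 15.62, 16.12 and 16.73, so most of its 9.74-fold difference was already there at 3.75 nM. The others of the 15 largest were ATF3 (3.37), LY6K (3.30), ASNS (3.29), LAT2 (3.15), EGR1 (3.12), MCTP1 (2.93), MAF (2.85), DAAM1 (2.82), COXFA4L3 (2.73), TMEM158 (2.65), RHCG (2.61) and the antisense RNA SERTAD4-AS1 (2.61). LY6K encodes a surface protein of germ cells and tumours, LAT2 an adaptor of immune receptors, MAF a leucine zipper factor, DAAM1 an actin-nucleating formin and RHCG an ammonium transporter.

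The largest ratios downward reached the same size. UCP2, a carrier of the inner mitochondrial membrane, read 9.60 on the vehicle array, 9.19 at 3.75 nM, 5.76 at 15 nM and 6.42 at 60 nM, 14.3-fold lower at 15 nM. Its log2 ratio lay between -4.26 and -2.44 under the alternatives run. VASH1, a tubulin carboxypeptidase that restrains vessel growth, read 10.89, 10.06, 7.37 and 7.91, 11.5-fold lower. Both were lower at 15 nM than at 60 nM. GPRIN2 read 11.86, 9.83, 8.43 and 7.15 and HSPA8, the constitutive HSP70 chaperone, 14.68, 13.55, 11.46 and 10.53, each lower at every higher dose. CLDN2, the claudin that forms cation pores in tight junctions, read 12.62, 12.51, 9.72 and 7.48. Others were RNF213, a giant ubiquitin ligase (-3.46), LIAT1 (-3.30), MFAP5, a microfibril protein (-3.22), CRYM (-3.20), the carbonyl reductase CBR3 (-3.09), FBXO16 (-2.99), SLFN11, which blocks stalled replication forks (-2.98), C3orf18 (-2.95) and TM4SF20 (-2.88). LIAT1, CBR3, FBXO16, C3orf18 and TM4SF20 were not well above background at 60 nM. FBXO16 read 5.23 at 15 nM, at the lowest signal called well above background on that array. Under the alternatives run its ratio lay between -3.26 and -1.64. MFAP5 differed by 1.90 between the vehicles and stood at -1.33 against the EEDS vehicle. RNF213 had a second probe at -1.40, and ATF3, at 3.37 on its brightest probe, had further probes at 0.78 and 0.85, under 2-fold.

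**Figure D3:**
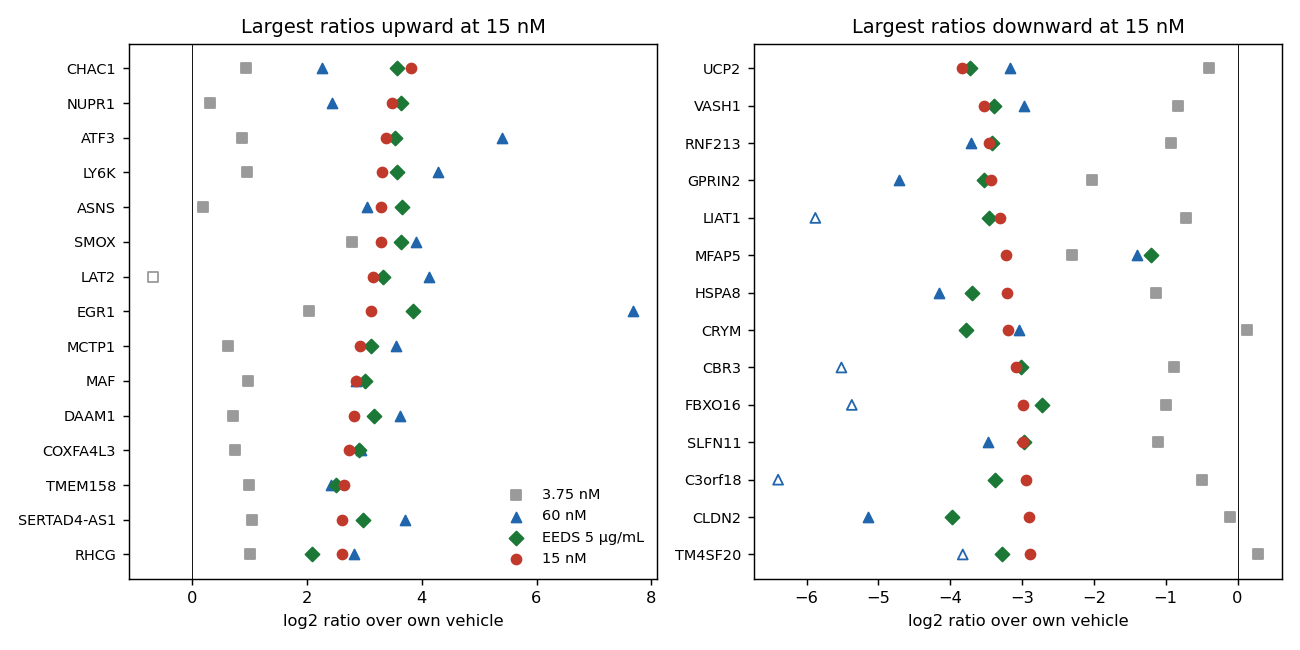
Log2 ratio over the own vehicle at 15 nM (red circles), 3.75 nM (grey squares), 60 nM (blue triangles) and EEDS 5 μg/mL (green diamonds) for the genes with the largest ratios each way, hollow where the treated array was not well above background. The green diamonds lie close to the red circles for most genes, furthest for MFAP5 and CLDN2, and each grey square lies nearer 0 than its red circle.

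The sodium pump, the drug's target, was looked at for its own transcripts. None of the 14 measured members of a list of sodium pump subunits and ion transporters was over 2-fold higher. Over 2-fold lower was 1 (7.14%, against 6.7% of all members). The beta subunits ATP1B1 and ATP1B3 stood at 0.84 and 0.42, and ATP1B1 at 1.35 at 60 nM. NKAIN1, a protein that binds the beta subunit, stood at -1.27, and the chloride cotransporter SLC12A2 at -0.98.

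The list with the highest median, under each alternative run, was that of the integrated stress response, in which kinases that sense amino acid shortage, unfolded protein or other stress slow translation, the factor ATF4 accumulates, and ATF4 switches on amino acid supply. Of its 22 members, 16 were over 2-fold higher (72.7%, against 5.53% of all members) and none lower, with a median of 1.72 against -0.01 for all members. Against both vehicles, 14 of the 16 stayed over 2-fold higher. ASNS, which makes asparagine, read 13.39 on the vehicle array, 13.58 at 3.75 nM, 16.68 at 15 nM and 16.44 at 60 nM, 9.75-fold higher at 15 nM. It hardly differed from vehicle at the lowest dose. The serine pathway enzymes lay in the same range, PHGDH at 2.39, PSAT1 at 2.16 and PSPH at 1.05, and so did the mitochondrial folate enzyme MTHFD2 at 1.89. The amino acid transporters SLC38A2 and SLC7A5 stood at 1.56 and 1.48. Among regulators, DDIT3 (CHOP, a factor of stress-induced death) stood at 2.57, the pseudokinase TRIB3 at 2.12 and PPP1R15A, which restores translation, at 2.18. ATF4 itself, which is controlled mainly at translation, stood at 0.58. SLC7A11, the cystine carrier that feeds glutathione, was the single member below 0, at -0.49. STC2, a secreted glycoprotein, was not well above background on the vehicle array and was at least 7.38-fold higher.

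Immediate early genes, which encode transcription factors induced within the first hour of a stimulus without new protein, had a median of 1.03. Of 23 members 13 were over 2-fold higher (56.5%, against 5.53% of all members) and none lower. Against both vehicles 8 of the 13 stayed over 2-fold, and the list stood lower on the helveticoside than on the EEDS vehicle, with a median difference of -0.50. EGR1, a zinc finger factor, read 6.06 on the vehicle array, 8.10 at 3.75 nM, 9.18 at 15 nM and 13.74 at 60 nM. ATF3 read 8.27, 9.13, 11.64 and 13.67, and MAFF, a small leucine zipper factor, 7.64, 8.84, 10.21 and 12.09. All 3 stood higher with each dose. The AP-1 subunits lay between, FOSL1 at 2.08, JUN at 1.77, FOSB at 1.74, JUNB at 1.40 and FOS at 1.12. MYC stood at -0.02 and NR4A1 at 0.09. KLF4 was not well above background on the vehicle array and was at least 4.40-fold higher.

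Both lists were then read along the dose series, with 1 array at each dose. Of the 22 stress response genes, 18 read lower at 60 nM than at 15 nM, with a median difference of -0.61. None of the 23 immediate early genes did, and their median difference was 1.22. Over all 12144 members 49.6% read lower at 60 nM, with a median of 0.00. At 3.75, 15 and 60 nM the medians were 0.20, 1.72 and 1.33 for the stress response and 0.84, 1.03 and 2.29 for the immediate early genes, each against the same vehicle array. DDIT4, a brake on mTOR signalling, went from 0.74 at 15 nM to -1.06 at 60 nM, whereas PPP1R15A went from 2.18 to 4.52. On the EEDS arrays, which share no array with these, 16 of the 22 stress response genes and none of the 23 immediate early genes read lower at 20 than at 5 μg/mL, with medians of -0.92 and 2.03 and 52.6% lower over all members. CHAC1 showed the largest drop of the named stress genes on those arrays, from a ratio of 3.57 at 5 μg/mL to -0.21 at 20 μg/mL.

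**Figure D4:**
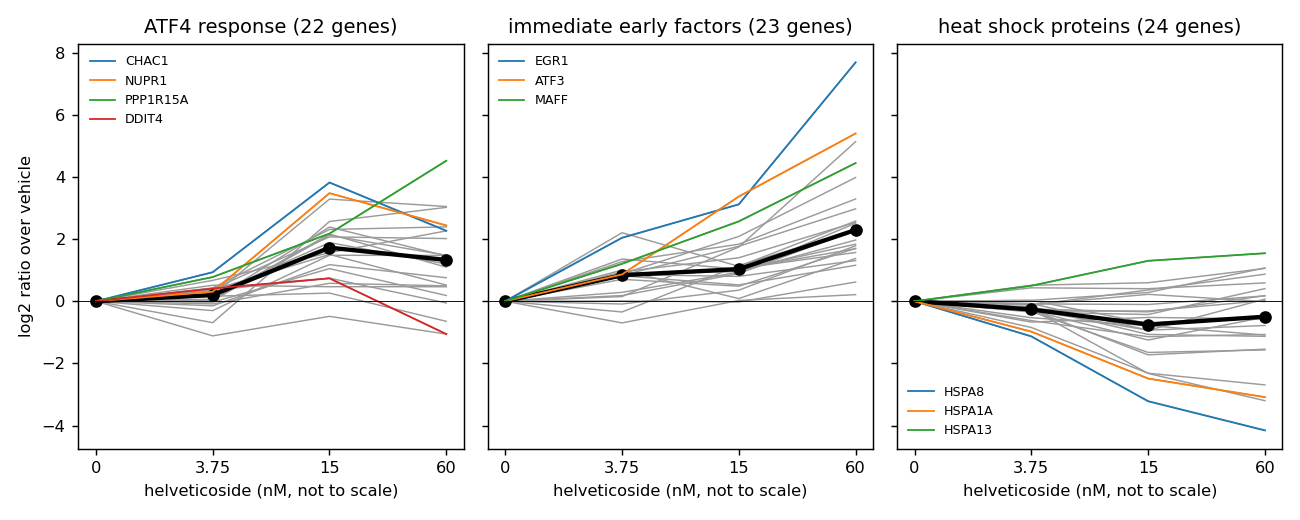
Log2 ratio over the shared vehicle array (vertical) at 0, 3.75, 15 and 60 nM helveticoside (horizontal, evenly spaced, not to scale), 1 line a gene, the black line the list median and named genes in colour. The ATF4 list peaks at 15 nM at a median of 1.72, the immediate early list reaches 2.29 at 60 nM, and the heat shock list stands at -0.75 at 15 nM with HSPA13 as the highest line.

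Upstream sequence is shown for genes that the preceding lists and the heat shock list turn on, because it holds the short motifs these pathways are known by. The windows come from RefSeq on GRCh38.p14, are written 5′ to 3′ on the gene's own strand, and capitals mark the motif. ASNS (chr7:97872429-97872528, minus strand) and CHAC1 (chr15:40953221-40953320, plus strand) hold TGATGNAA, the core of the element bound by ATF4 with C/EBP factors, CHAC1 on the opposite strand and further upstream. PPP1R15A (chr19:48872301-48872400, plus strand) and MAFF (chr22:38201874-38201973, plus strand) hold the cAMP response element TGACGTCA. EGR1 (chr5:138465359-138465458, plus strand) holds a pair of CArG boxes, the site of serum response factor. HSPA1A (chr6:31815423-31815522, plus strand) and HSPA8 (chr11:123062157-123062256, minus strand) hold GAANNTTC, a core of the heat shock element. The windows run from 120 to 21 bases before the annotated start, and from 250 to 151 for CHAC1.
ASNS: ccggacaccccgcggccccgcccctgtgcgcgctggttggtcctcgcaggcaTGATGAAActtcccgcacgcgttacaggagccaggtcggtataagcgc
CHAC1: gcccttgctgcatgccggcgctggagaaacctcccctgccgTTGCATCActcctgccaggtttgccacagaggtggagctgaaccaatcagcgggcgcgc
PPP1R15A: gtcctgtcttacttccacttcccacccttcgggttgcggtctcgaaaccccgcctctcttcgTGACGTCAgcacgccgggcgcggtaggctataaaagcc
MAFF: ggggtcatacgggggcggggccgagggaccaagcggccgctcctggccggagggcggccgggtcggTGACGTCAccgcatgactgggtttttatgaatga
EGR1: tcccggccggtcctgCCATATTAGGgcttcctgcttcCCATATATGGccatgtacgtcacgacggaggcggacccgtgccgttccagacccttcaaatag
HSPA1A: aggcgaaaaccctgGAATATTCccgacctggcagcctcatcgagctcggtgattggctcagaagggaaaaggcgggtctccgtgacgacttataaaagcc
HSPA8: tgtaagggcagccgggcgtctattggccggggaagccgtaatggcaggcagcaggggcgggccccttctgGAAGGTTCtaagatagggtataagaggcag

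The motifs were counted on both strands in windows from 250 bases before to 50 after the start, which RefSeq gave for 9778 of the 12144 members and for 27305 genes in all. TGATGNAA was in 3.76% of the 532 genes over 2-fold higher, 1.98% of the 658 over 2-fold lower, 1.67% of the members and 3.67% of all windows. In the stress response list, 2 of 17 windows held it, those of ASNS and CHAC1. TGACGTCA was in 5.26% of the higher, 2.13% of the lower and 3.26% of the members, and the AP-1 site TGAGTCA in 6.58%, 1.98% and 3.12%. In all windows these shares were 1.98% and 4.92%. The heat shock core was in 6.02% of the higher, 3.80% of the lower, 4.55% of the members and 6.87% of all windows, and CArG boxes in 1.32%, 0.304%, 1.03% and 1.29%. The E-box CACGTG was in 11.5%, 10.5%, 10.1% and 7.43%. The TATA box was in 10.9% of the higher, 5.32% of the lower, 6.20% of the members and 3264 of the 27305 windows. The ASNS window also held GAANNTTC, overlapping its other motif. A match is a run of letters and not a bound site.

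Signalling genes of growth factors and cytokines had more members over 2-fold higher than lower. Of 12 measured MAP kinase phosphatases and Sprouty proteins, which switch off ERK, p38 and JNK signals, 4 were over 2-fold higher and none lower. That was 33.3%, against 5.53% of all members, and the median was 0.31. DUSP5 stood at 1.79, DUSP1 at 1.59, SPRY4 at 1.22 and DUSP6 at 1.04. A further probe of SPRY4 stood at 0.11, and against both vehicles 2 of these 4 stayed over 2-fold. In the EGF family 3 of 7 members were over 2-fold higher (42.9%, against 5.53% of all members). They were the ligands EREG (2.57) and AREG (1.94) and the receptor EGFR (1.37), and all 3 stayed over 2-fold against both vehicles. AREG read 12.10 on the vehicle array, 12.93 at 3.75 nM, 14.05 at 15 nM and 14.84 at 60 nM, a step at every dose. ERBB2 stood at 0.00.

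Among cytokines and NF-kappa B genes, 5 of 15 members were over 2-fold higher (33.3%, against 5.53% of all members) and none lower. All 5 were over 2-fold higher against the EEDS vehicle too, and the median was 0.91. BIRC3, an inhibitor of apoptosis, stood at 2.47, RELB, a subunit of the alternative NF-kappa B pathway, at 2.01, and the cytokines IL11 and LIF of the IL-6 family at 1.85 and 1.53. The fifth was the neutrophil chemokine CXCL5 (1.49). NFKBIA, the inhibitor that NF-kappa B induces, stood at 0.36 and was higher at 3.75 nM, at 1.05. CXCL8, a related chemokine, was not well above background on the vehicle array and read 7.85 at 3.75 nM, 9.58 at 15 nM and 11.31 at 60 nM, at least 16.3-fold higher at 15 nM. LTB, of the TNF family, was at least 5.28-fold higher. IL6, TNF, IL1A and IL1B were not well above background on either array.

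In the TGF-beta and BMP list 4 of 23 members were over 2-fold higher (17.4%, against 5.53% of all members) and 2 over 2-fold lower (8.70%, against 6.7%), with a median of 0.23. Against both vehicles 2 of the 4 stayed over 2-fold higher, without CCN2 and ID4. The higher ones included the BMP antagonist GREM1 (1.87), the matrix protein CCN2 (1.50) and ID4 (1.05). The lower ones were the ligand BMP4 (-1.35) and the decoy receptor BAMBI (-1.14). Another BMP antagonist, NOG, was not well above background on the vehicle array and was at least 4.37-fold higher. SMAD7 stood at 0.86 and ID1 at -0.02. For 13 clock genes the median was 0.45. PER1 (1.76), CRY1 (1.23) and BHLHE40 (1.07) were over 2-fold higher (23.1%, against 5.53%), and none of these 3 stayed so against both vehicles. The vehicles differed by -0.85 for PER1, -0.47 for CRY1 and -0.39 for BHLHE40.

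Genes of growth arrest and cell death also had more members over 2-fold higher than lower. Among p53 targets and GADD45 genes 11 of 23 were over 2-fold higher (47.8%, against 5.53% of all members). TP53I3 was the 1 lower, at -1.14 (4.35%, against 6.7%). The median was 0.84, and 9 of the 11 stayed over 2-fold higher against both vehicles. CDKN1A (p21), the inhibitor of cyclin-dependent kinases, read 7.18 on the vehicle array, 7.07 at 3.75 nM, 8.87 at 15 nM and 9.70 at 60 nM, so the lowest dose lay beside the vehicle. PLK3 stood at 1.88 and ZMAT3 at 1.55. MDM2, a p53 target that degrades p53, stood at 0.37, with further probes at 0.50 and 0.89. In the BCL2 family 5 of 13 members were over 2-fold higher (38.5%, against 5.53%) and 2 lower (15.4%, against 6.7%). The higher ones were the killers BBC3 (PUMA, 2.18), BMF (1.75), PMAIP1 (NOXA, 1.41) and BAK1 (1.21) and the protector MCL1 (1.45). Against both vehicles 4 of the 5 stayed over 2-fold higher, while BMF stood at 0.69 against the EEDS vehicle. The lower ones were BOK (-1.29) and BCL2L11 (BIM, -1.15), whose probes ran from -1.15 to 0.33. BAX stood at -0.10, with another probe at 0.70 and -1.12 against the EEDS vehicle, and BCL2L1 at 0.86. HRK, a further killer, was not well above background on the vehicle array and was at least 2.33-fold higher.

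Cell cycle genes were read by list. Of 34 DNA replication genes 32 read lower than on the vehicle array, 8 of them over 2-fold (23.5%, against 6.7% of all members), with a median of -0.71, and all 8 stayed over 2-fold lower against both vehicles. The list medians at 3.75, 15 and 60 nM were -0.22, -0.71 and -0.32. At 60 nM 8 of the 34 read lower than at 15 nM, with a median difference of 0.25, against 49.6% of all members. PRIM1, the primase subunit, read 11.21 on the vehicle array, 10.10 at 3.75 nM, 9.38 at 15 nM and 8.79 at 60 nM. The helicase subunit MCM4 stood at -1.39, the ligase LIG1 at -1.35 and the initiation factor MCM10 at -1.22 (0.10 at 60 nM). Smaller ratios were measured for MCM2 (-0.77), PCNA (-0.49) and CDC6 (-0.46). CCNE2, the cyclin of S phase entry, was not well above background at 15 nM and was at least 5.16-fold lower. None of 30 mitosis genes passed 2-fold in either direction, and their ratios ran from -0.75 to 0.31, with CDK1 at 0.31, CCNB1 at -0.05 and PLK1 at -0.11. Among 12 G1 cyclins and inhibitors, CDKN1A (1.69) and CDKN1C (1.11) were over 2-fold higher (16.7%, against 5.53%) and CDKN2C (-1.67) lower (8.33%, against 6.7%). CCND1 stood at 0.60 and CDK4 at -0.20, and CDKN1C stood at 0.99 against the EEDS vehicle. In base excision repair, which replaces damaged bases, 3 of 21 members were over 2-fold lower (14.3%, against 6.7%) and 1 higher (4.76%, against 5.53%). The median was -0.65. The lower ones were the glycosylases NTHL1 (-1.47) and MUTYH (-1.30) and, shared with replication, LIG1. Of 60 histone genes of the replication clusters, 4 were over 2-fold higher (6.67%, against 5.53% of all members) and 1 lower (1.67%, against 6.7%). The median was 0.16, and 2 of the 4 stayed over 2-fold higher against both vehicles. The 4 were H2BC12 (1.15), H2AC25 (1.15), H2AC19 (1.14) and H4C16 (1.06), whose probes may bind near-identical copies. Another probe of H2BC12 stood at 0.39. The lower one was H2AC16 (-1.49), for which the vehicles differed by 1.37.

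Heat shock proteins, the chaperones that fold and refold other proteins, had a median of -0.75. Of 24 members 9 were over 2-fold lower (37.5%, against 6.7%), all 9 also against the EEDS vehicle, and 1 was higher (4.17%, against 5.53%). The list medians at 3.75, 15 and 60 nM were -0.26, -0.75 and -0.50. At 60 nM 8 of the 24 read lower than at 15 nM, with a median difference of 0.19, against 49.6% of all members. HSPA1A, the inducible HSP70, read 14.38 on the vehicle array, 13.40 at 3.75 nM, 11.89 at 15 nM and 11.29 at 60 nM. HSPA2, the form abundant in germ cells, read 12.49, 12.24, 10.17 and 9.29. Both read lower at each higher dose. HSPA1B, nearly identical to HSPA1A in sequence, so that a probe may read both, stood at -2.32. The HSP90 genes HSP90AA1 and HSP90AB1 stood at -1.73 and -1.65, the HSP110 chaperone HSPH1 at -1.25, DNAJA1 at -1.14 and the mitochondrial HSPD1 at -1.07. HSPA5 and HSPB1 stood at -0.78 and -0.93. HSPA13, a microsomal relative, was the member over 2-fold higher, at 1.30, and HSF1, the factor that drives the heat shock genes, stood at 0.22.

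In cholesterol synthesis and uptake 7 of 23 members were over 2-fold lower (30.4%, against 6.7% of all members) and none higher. The median was -0.47, and all 7 stayed over 2-fold lower against both vehicles. Among them were MVK (-1.41), DHCR7 (-1.32), ACAT2 (-1.20), TM7SF2 (-1.06) and NSDHL (-1.01). SQLE stood at -0.45 and HMGCS1 at -0.01.

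Other metabolic lists differed less. Fatty acid oxidation had 1 of 23 members over 2-fold lower, ACAD9 at -1.51 (4.35%, against 6.7% of all members). CPT1A stood at -0.47 and HADHA at 0.23, and the median was -0.17. Of 20 genes of branched-chain amino acid breakdown 3 were over 2-fold lower (15%, against 6.7%), ACADSB (-2.29), BCKDHB (-1.89) and BCKDK (-1.04). The cytosolic transaminase BCAT1 (1.81) was the 1 higher (5%, against 5.53% of all members), and the list median was -0.15. The pentose phosphate list had 1 of 11 over 2-fold lower, PGD at -1.11 (9.09%, against 6.7%), with TKT at -0.12 and a median of -0.41. Among 21 NRF2 targets and antioxidant enzymes CBR3 and GCLC (-1.19), the catalytic subunit of glutathione synthesis, were over 2-fold lower (9.52%, against 6.7%) and none higher. The median was -0.40, with NQO1 at -0.44 and HMOX1 at 0.21. In the list of glycolysis and hypoxia targets, 3 of 23 were over 2-fold higher (13.0%, against 5.53%). They were VEGFA (1.89), the fructose bisphosphate regulator PFKFB4 (1.55) and the glucose transporter SLC2A1 (1.44). LDHA stood at 0.24 and GAPDH at -0.15.

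Epithelial genes gave ratios in both directions. Of 21 members of the tight junction and epithelial list 4 were over 2-fold lower (19.0%, against 6.7%) and 3 higher (14.3%, against 5.53%). Below were CLDN2, the adherens junction protein CDH1 (-1.52), CLDN3 (-1.47) and the matrix protein FN1 (-1.42). Above were ZEB2, a repressor of CDH1 (1.99), CLDN1 (1.58) and CLDN12 (1.18), the last at 0.71 against the EEDS vehicle. CDH1 read 9.69 on the vehicle array, 9.85 at 3.75 nM, 8.17 at 15 nM and 6.98 at 60 nM. It lay beside the vehicle at the lowest dose. VIM, an intermediate filament of mesenchymal cells, stood at -0.13 and TJP1 at -0.12. Among the A549 markers, KRT8 stood at -0.52, KRT18 at -0.43 and EPCAM at -0.48, and CDH1 was the single member over 2-fold changed. CD14 (-1.33) and CD68 (1.41) were the members over 2-fold changed in the blood, endothelial and fibroblast list, with CD68 at 0.70 against the EEDS vehicle.

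The most abundant machinery stayed near the vehicle. None of 80 cytosolic ribosomal protein genes and none of 76 oxidative phosphorylation genes passed 2-fold, and their medians were 0.13 and 0.10. RPL3 stood at 0.21, RPS6 at 0.08, NDUFS1 at -0.08, COX4I1 at 0.10 and SDHA at 0.38. None of 15 housekeeping genes passed 2-fold, with ACTB at -0.26 and TBP at 0.00. In a list of 277 genes named ZNF, 15 were over 2-fold higher (5.42%) and 17 lower (6.14%), close to the 5.53% and 6.7% of all members, and 7 and 13 of them stayed so against both vehicles. ZNF341 (1.89), ZNF335 (1.79) and ZNF773 (1.77) lay highest and ZNF575 (-2.03), ZNF32 (-1.82) and ZNF512 (-1.74) lowest. Another probe of ZNF773 stood at 0.51, and ZNF335 stood at 0.97 against the EEDS vehicle.

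**Figure D5:**
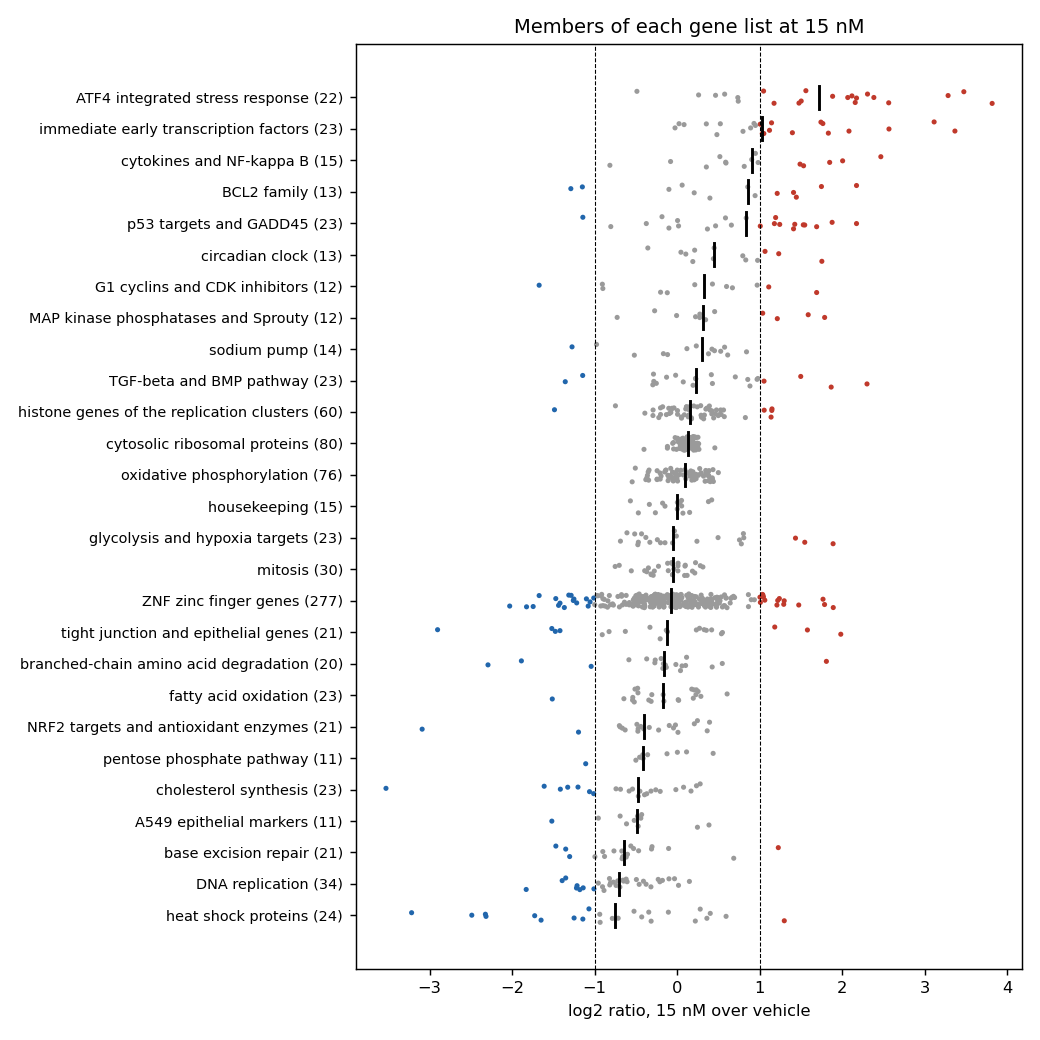
Log2 ratio of 15 nM over vehicle (horizontal) for every member of each gene list with at least 10 members, number of members in brackets, red over 2-fold higher, blue over 2-fold lower, black bars the list medians and dashed lines 2-fold. The medians run from 1.72 for the ATF4 list to -0.75 for heat shock proteins, and ribosomal and oxidative phosphorylation genes lie within the dashed lines.

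The genes past 2-fold at 15 nM were followed across the other doses. In dose order the medians were 0.47, 1.29 and 1.64 for the 671 higher genes and, for the 814 lower genes, -0.39, -1.31 and -1.77. All 3 doses share the vehicle array and the middle dose chose the genes, so the medians are a description. The 5 genes furthest above both neighbouring doses were SPO11, C11orf65, TNIP3, MEP1B and MAPT, and none of them was well above background at 3.75 or 60 nM. Against the vehicle array SPO11, TNIP3 and MEP1B stood at -0.20, 0.11 and 0.11, and C11orf65 and MAPT at 2.44 and 1.01. Among those furthest below both were MMRN2, a matrix protein of vessels (-1.47), SLC16A11, a monocarboxylate carrier (-1.36), the collagen gene COL1A1 (-0.62) and DNA2, a nuclease and helicase of replication (-1.74). MMRN2 stood at -0.30 against the EEDS vehicle.

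The EEDS series, with a vehicle of its own, was set beside the comparison at its own middle dose of 5 μg/mL. Of 12053 genes well above background on the 4 arrays, 667 were over 2-fold higher at 15 nM and 867 at 5 μg/mL, with 523 in both, 78.4% of the former and 60.3% of the latter. For genes over 2-fold lower the numbers were 808, 969 and 610, or 75.5% and 63.0%. Only 2 genes higher at 15 nM were over 2-fold lower at 5 μg/mL, and 1 was the reverse. Over all 13138 genes measured at 5 μg/mL and on the EEDS vehicle, 7.6% were over 2-fold higher and 8.29% lower. The doses are in different units and cannot be matched.

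Genes measured on a single side of the comparison gave bounds. Of the 655 well above background at 15 nM alone, 137 were at least 2-fold and 27 at least 4-fold higher, and of the 380 on the vehicle array alone, 218 and 44 were at least as much lower. ULBP1, a ligand of the natural killer cell receptor NKG2D, read 4.50 on the vehicle array, 3.85 at 3.75 nM, 9.71 at 15 nM and 9.49 at 60 nM, at least 17.9-fold higher at 15 nM. After CXCL8 came C11orf96 (at least 11.1-fold), FUT1, a fucosyltransferase (8.40-fold), and TESMIN (8.22-fold). BAAT, which conjugates bile acids, read 9.52, 8.50, 5.38 and 2.96 and was at least 17.7-fold lower. FBN2, a fibrillin, and DACT2, a Wnt modulator, were each at least 11.7-fold lower. P2RX7, an ATP-gated channel, and CDNF, a neurotrophic factor, were at least 10.7-fold and 8.74-fold lower, but both were bright on the helveticoside vehicle array alone and their vehicles differed by 5.72 and 3.62. In all, 101 genes were well above background on the 15 nM array alone of the 8 and 59 on the helveticoside vehicle array alone. The same count was 42 at 3.75 nM, 81 at 60 nM, 219 on the EEDS vehicle array, 92 at EEDS 5 μg/mL and 176 at EEDS 20 μg/mL.

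Of 2695 genes with at least 2 probes measured on both arrays, the pooled SD between probes of a gene was 0.36. Of the 290 of these over 2-fold, 144 had every probe over 2-fold and 32 had a probe of opposite sign. The spots of a probe printed at least 5 times on an array differed by a median SD of 0.08. The 4 helveticoside arrays had a higher signal at the dark corner spots, 118 to 141 against 34 to 36 on the EEDS arrays, and fewer probes well above background, 54.5% to 59.5% against 63.3% to 64.9%. The part of this gap in the vehicle differences was not tested.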

How the data were processed

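Each array held RNA of A549 cells pooled from 3 cultures. Per the study's methods exposure lasted 24 h and per the labels 48 h. The labels name Cy5, whereas the columns are those of the green channel. What the helveticoside vehicle contained is not given in the sources used here. Spot intensity values from Agilent Feature Extraction were deposited per array: the median signal, the local background, a background-subtracted processed signal and calls of outlier and well-above-background spots. They also deposited a table of intensity values, quantile-normalized by them, with 2427 blank values, used as an alternative. The software version and annotation are not given in the sources used here.

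Here, control and outlier spots were left out (22 of 34127 probes had no other spots), the processed signal was averaged per probe, quantile-normalized over 8 arrays and put on the log2 scale (Python 3.11.15, numpy 2.4.6, pandas 2.3.3). A probe counted as well above background where more than 0.5 of its usable spots were called so. Of the probes, 24809 matched a RefSeq gene of GRCh38.p14 by unversioned accession, and the probe of highest mean signal stood for each of 19053 genes. Where 1 array was not well above background, the ratio is a bound against the higher of the dim value and the lowest signal well above background. The processing was tested on simulated data. Precision is limited by 1 array a side.

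Named are the 15 largest ratios each way, up to 4 each way past 2-fold and 3 defining members per list, the 5 genes furthest above and below both other doses, and the 5 largest bounds each way. Some genes that this rule names are not reported here. The other list members, and the bounds of STC2, KLF4, LTB, NOG, HRK and CCNE2, were named after their values were seen. The gene set and the 29 gene lists were chosen with earlier results of these data known. Alternatives changed the normalization, background correction (normexp, limma 3.58.1, R 4.3.3, offset 50), filter, probe rule, outlier spots and control array. Comparison with both vehicles and median centring were added after the data were seen.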

Additional observations from a re-analysis of the deposited data

Results flagged for a closer look

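MAPT, the gene of the microtubule protein tau, stood at 1.01 at 15 nM helveticoside and at -1.17 at 5 μg/mL EEDS, past 2-fold in opposite directions against the own vehicle. It read 6.48 on the helveticoside vehicle array, 7.48 at 15 nM, 7.41 on the EEDS vehicle array and 6.24 at 5 μg/mL, was not well above background at 3.75 or 60 nM, and stood at 0.08 against the EEDS vehicle. The difference was not tested, since each dose had 1 array.

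NEIL1, a glycosylase that opens base excision repair, stood at 1.23 at 15 nM and at -1.01 at 5 μg/mL EEDS, and was the single repair gene of its list over 2-fold higher. Its ratios at 3.75 and 60 nM were 0.50 and -0.48, so the 2 higher helveticoside doses lay on opposite sides of the vehicle. The difference was not tested.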

How the results depend on the processing

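No paired analysis was possible because each group holds 1 array. Main counts were 671 genes over 2-fold higher, 814 lower, and 67 and 84 over 4-fold. The authors' processed values gave 393, 448, 27 and 23. Without the filter there were 1349, 1536, 272 and 316, and against the EEDS vehicle 1070, 1299, 121 and 161. The median signal as scanned gave 533 over 2-fold lower and 33 over 4-fold each way, and normexp 35 over 4-fold each way. Against both vehicles 399 stayed over 2-fold and 37 over 4-fold higher. The cause was not tested. Other counts stayed within 1.5 times. Of genes over 2-fold, 45.2% were higher, against 37.1% with both vehicles. Of 120 named genes over 2-fold, 98 remained so with the authors' values and 102 against the EEDS vehicle. The sodium pump list's median of 0.31 became -0.066 without the filter and the tight junction list's -0.12 became 0.14 with 75th percentile scaling. Ratios of dim genes are to be read with caution. Of the 4048 dimmest members, 3985 were also well above background on the EEDS vehicle array. Of those, 8.48% passed 2-fold between the vehicles.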
